A study of Mus musculus with 6 samples.

Results

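Metallothioneins are short, cysteine-rich proteins that hold zinc and copper ions. The 3 metallothionein genes of the deposited mouse brain table, Mt1, Mt2 and Mt3, were compared between the high and low sexual motivation groups of mice. They were taken by gene symbol, as 3 of 13170 genes, and not by their values, but with earlier results of these data known. All 3 passed the filter for testing, a mean of at least 1 FPKM over the 6 libraries (fragments scaled to transcript length and to the mapped total). The libraries were poly(A) RNA from male mice labelled C57, 3 from the high group (high libraries 1 to 3) and 3 from the low group (low libraries 1 to 3), and no treatment or allele is named for either group. No source used here gives the age, the way motivation was scored or whether each library is a separate animal. The p-values therefore measure the spread between these libraries, which may be technical. The tissue is the medial amygdala in the series title, PrL in the extraction protocol and brain in the tissue label.

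MT1 and MT2 are made in most tissues and are induced by zinc, other metals, oxidative stress and glucocorticoids. The zinc-sensing factor MTF1 binds metal response elements in their promoters. In the brain they are known mainly from astrocytes, ependyma, choroid plexus and meninges. MT3, first described as a growth inhibitory factor, is found chiefly in the nervous system, in neurons and astrocytes, and responds little to metals. Zinc is stored in synaptic vesicles of many forebrain neurons, including those of the amygdala, where the transporter ZnT3 (Slc30a3) loads it.

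The coding sequences show what the members share, a chain of cysteine codons, and how Mt3 differs from the other two. Each was read from the GENCODE transcript with the lowest number in GRCm38 and is printed 5′ to 3′ with the cysteine codons TGC and TGT in capitals.
Mt1: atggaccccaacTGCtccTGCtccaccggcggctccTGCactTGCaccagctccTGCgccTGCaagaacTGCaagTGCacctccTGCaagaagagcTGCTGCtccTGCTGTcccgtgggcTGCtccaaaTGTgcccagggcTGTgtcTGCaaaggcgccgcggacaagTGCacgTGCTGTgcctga
Mt2: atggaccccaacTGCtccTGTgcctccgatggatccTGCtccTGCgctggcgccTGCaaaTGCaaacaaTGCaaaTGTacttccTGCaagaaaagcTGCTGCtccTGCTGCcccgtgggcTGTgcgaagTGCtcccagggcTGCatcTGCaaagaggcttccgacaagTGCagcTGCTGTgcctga
Mt3: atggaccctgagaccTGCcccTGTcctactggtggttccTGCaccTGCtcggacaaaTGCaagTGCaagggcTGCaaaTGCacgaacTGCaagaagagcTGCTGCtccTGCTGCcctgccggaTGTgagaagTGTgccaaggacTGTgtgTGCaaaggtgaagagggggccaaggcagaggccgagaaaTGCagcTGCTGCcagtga
Mt1 and Mt2 had 61 codons before the stop, and Mt3 had 68. Each held 20 cysteine codons, 32.8% of the codons in Mt1 and Mt2 and 29.4% in Mt3, and 0 codons for histidine or an aromatic residue. Lysine codons numbered 7 in Mt1, 8 in Mt2 and 11 in Mt3. Mt1 and Mt2 were identical at 148 of 186 aligned bases (79.6%). Mt3 matched Mt1 at 65.2% and Mt2 at 67.6% of 207 aligned columns, of which 21 were gaps. In spite of this likeness, none of the 50-base stretches of the 3 transcripts (500 in Mt1, 462 in Mt2, 487 in Mt3) occurred in a transcript of another gene on the same strand.

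The 3 genes lie on the plus strand of chromosome 8 within 27721 bases, in the order Mt3, Mt2, Mt1. In GRCm38, Mt3 spans chr8:94152607-94154146, Mt2 spans chr8:94172664-94173568 and Mt1 spans chr8:94179082-94180327, each with 3 exons in the transcript shown. Mt2 and Mt1 are 5513 bases apart, and Mt3 ends 18517 bases before Mt2. The antisense gene Gm45774 overlaps 749 of the 905 bases of Mt2, and 210 of the 462 stretches of Mt2 (45.5%) occur on the opposite strand in it. Second strands were marked with dUTP and degraded, per the labels' protocols, which preserves strand. No source used here says that counting made use of it, so reads of Mt2 and Gm45774 may not be separated. Gm45774 has no FPKM values under that symbol.

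**Figure D1:**
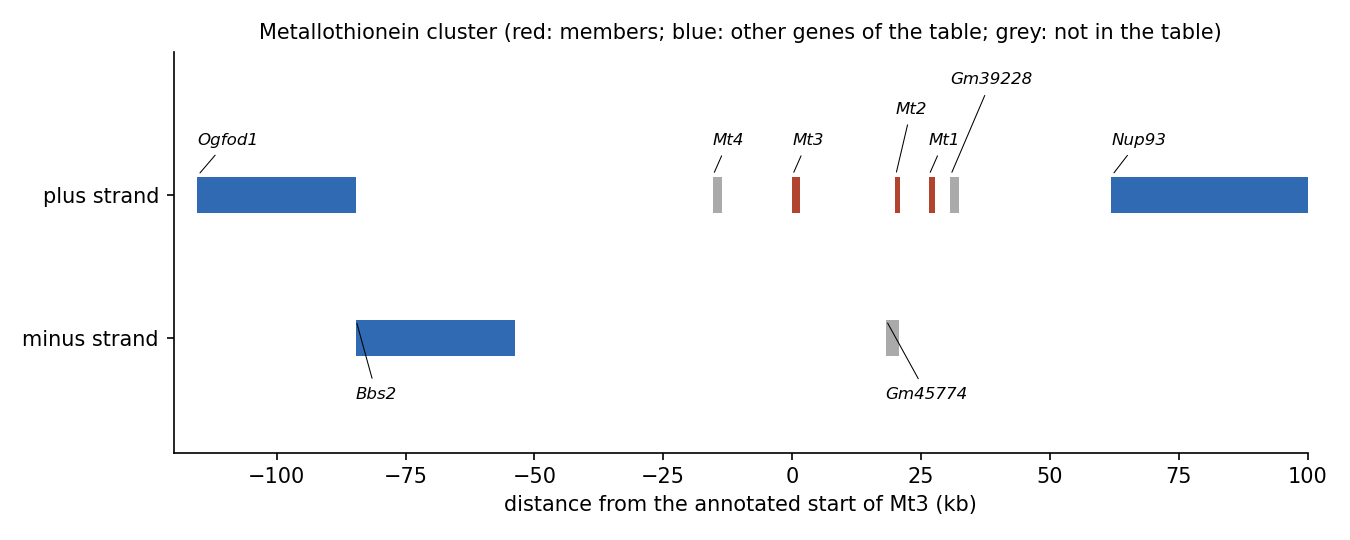
Annotated genes around the metallothionein cluster, by strand, with the distance from the start of Mt3 in kb on the x axis. Members are red, other genes with values blue and genes without values grey; the bar of Nup93 runs on beyond the right edge. Mt2 and Mt1 sit 5513 bases apart, with Gm45774 on the opposite strand of Mt2.

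The bases before the annotated start sites are shown because MTF1 binds in promoters. They are from RefSeq (GRCm38.p6, plus strand), which held all 3 genes, and cover the 250 bases before the start annotated there, which for Mt1 and Mt2 differs from that of GENCODE. Capitals mark matches on either strand to the 2 forms of the metal response element core, TGCACNC and TGCGCNC, which do not overlap here.
Mt1, chr8:94178839-94179088: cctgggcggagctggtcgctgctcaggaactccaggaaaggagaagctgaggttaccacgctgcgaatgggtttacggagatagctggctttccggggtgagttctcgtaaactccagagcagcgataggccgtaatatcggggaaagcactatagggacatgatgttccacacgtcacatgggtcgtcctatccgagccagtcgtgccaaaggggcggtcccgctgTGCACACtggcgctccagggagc
Mt2, chr8:94172368-94172617: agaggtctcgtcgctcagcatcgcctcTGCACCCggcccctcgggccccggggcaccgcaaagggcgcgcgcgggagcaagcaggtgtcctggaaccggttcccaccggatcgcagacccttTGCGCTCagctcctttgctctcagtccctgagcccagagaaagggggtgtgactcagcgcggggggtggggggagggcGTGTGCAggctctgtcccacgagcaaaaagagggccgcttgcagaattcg
Mt3, chr8:94152357-94152606: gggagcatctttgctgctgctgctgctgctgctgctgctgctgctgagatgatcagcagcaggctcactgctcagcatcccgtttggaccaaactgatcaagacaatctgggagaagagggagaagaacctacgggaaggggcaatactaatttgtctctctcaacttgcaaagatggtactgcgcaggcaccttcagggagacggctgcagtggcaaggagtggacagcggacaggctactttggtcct
Mt2 held 3 matches in the printed bases and Mt1 held 1, at bases -23 to -17, while Mt3 held 0. With the 50 bases after the start included, Mt2 had 4 matches, Mt1 had 3 and Mt3 had 1. Of 32851 such windows in the RefSeq table, 25.7% held at least 1 match, 1.97% held at least 3 and 0.517% held at least 4. A match is a run of letters only. The coding sequence shown begins at chr8:94179311 for Mt1 and chr8:94172848 for Mt2, and only 50 bases after the start were searched. Matches between those bases and the coding sequence are not counted.

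Mt3 was the most abundant member in every library, followed by Mt1, and Mt2 was far lower. Mt3 had 138, 153 and 167 FPKM among the high libraries and 128, 131 and 154 FPKM in the low libraries. Its mean of 145 FPKM over the 6 libraries ranked 184 of 13170 genes. Mt1 had 62.3, 70.1 and 71.8 FPKM among the high libraries and 55.5, 57.0 and 74.6 FPKM in the low libraries, with a mean that ranked 574. Levels of Mt3 and Mt1 did not overlap. Mt2 had 2.86, 2.77 and 4.85 FPKM among the high libraries and 2.73, 2.57 and 3.75 FPKM in the low libraries, and its mean of 3.26 FPKM ranked 9016. FPKM is per transcript length, which is why levels of different genes are set side by side here. The 3 members have short transcripts, at length percentiles 8.39 (Mt1), 1.13 (Mt2) and 1.78 (Mt3) of tested genes. Any effect of this on their levels and ranks was not tested. The level of Mt2 and its ratios to Mt1 and Mt3 also carry the doubt over reads shared with Gm45774, whose part was not tested.

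**Figure D2:**
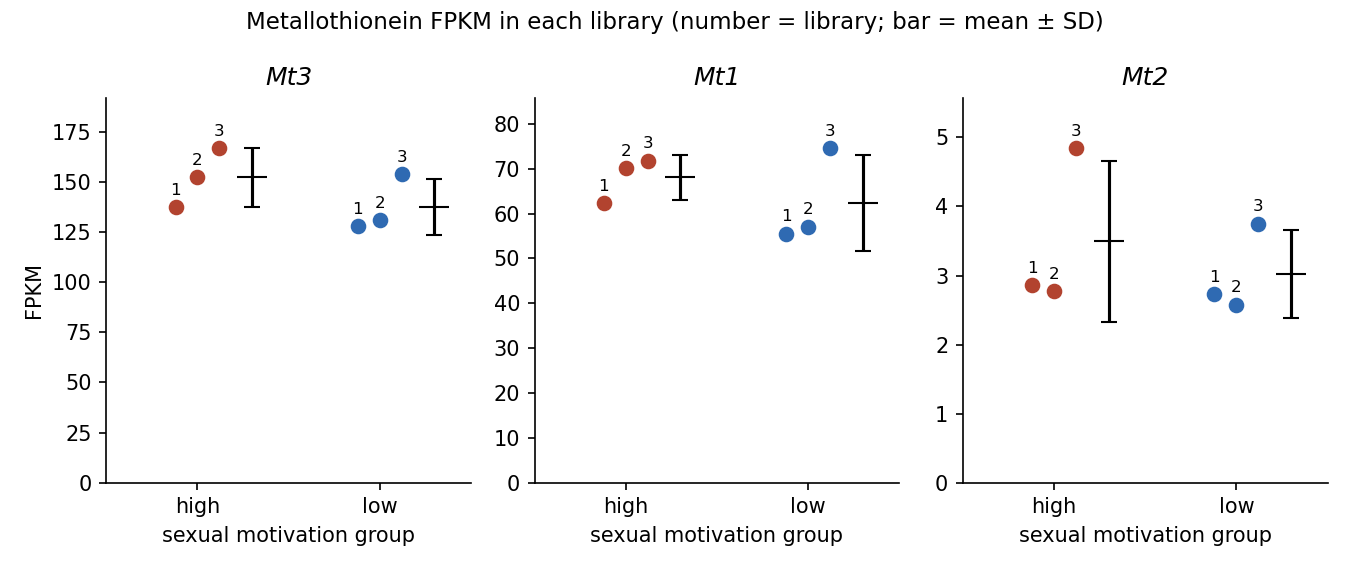
FPKM of Mt3, Mt1 and Mt2 (y axes, each from 0) in the high and low groups, with 1 point per library, numbered, and the mean ± SD of 3 libraries as a bar. The groups overlap for each gene, and the third library of the low group lies above the other low libraries in all panels.

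The proportion between Mt3 and Mt1 was nearly constant. Mt3 stood at 2.06 to 2.33 times Mt1 in FPKM, and supplied 66.3% to 68.7% of the summed FPKM of the 3 genes. Mt1 supplied 29.5% to 32.1% and Mt2 1.23% to 1.99%. Mt1 exceeded Mt2 by a factor of 14.8 in high library 3 and of 19.9 to 25.3 in the other libraries. The sum of the 3 genes was 203, 225 and 244 FPKM among the high libraries and 186, 191 and 232 FPKM in the low libraries. High library 3 and low library 3 thus had the largest sums, and low libraries 1 and 2 the smallest.

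Each member had a slightly higher mean in the high group, and none of the 3 differences passed the test. Mt3, the neural form, had 152 ± 14.7 FPKM (SD, n = 3) in the high group and 138 ± 14.1 FPKM (SD, n = 3) in the low group. Its difference (high group minus low group of log2(FPKM + 1), termed the log2 difference) was 0.15 (SE 0.0992; limma adjusted p = 0.691). For Mt1 the means were 68.1 ± 5.04 and 62.4 ± 10.6 FPKM, and the log2 difference was 0.13 (SE 0.117; limma adjusted p = 0.749). Mt2 had 3.49 ± 1.17 against 3.02 ± 0.638 FPKM, with a log2 difference of 0.14 (SE 0.185; limma adjusted p = 0.835). As ratios of FPKM + 1, the 95% intervals ran from 0.944 to 1.30 for Mt3, from 0.910 to 1.32 for Mt1 and from 0.821 to 1.48 for Mt2. The added 1 narrows the interval of Mt2, whose FPKM is low. With 0.1 added in its place the log2 difference of Mt2 was 0.18 (SE 0.231). Exact 2-sided permutation tests of the mean FPKM gave p-values of 0.3, 0.4 and 0.5, where 0.1 is the smallest that 3 libraries against 3 allow.

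The groups overlapped in all 3 genes, while they did not overlap in 14.9% of the 12026 genes tested (7.33% higher and 7.61% lower in the high group). At an adjusted p under 0.05 limma called 0% of all genes, and at an unadjusted p under 0.05 it called 8.39% of them (4.12% higher and 4.27% lower) but 0 of the 3 members. A log2 difference above 0 was seen in the 3 members and in 50.1% of all tested genes, whose median was 0.00018. The 3 genes were measured in the same 6 libraries, so their shared direction is not 3 independent observations. Their log2 differences lay at percentiles 87.6 (Mt1), 88.7 (Mt2) and 89.2 (Mt3) of all tested genes.

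Single libraries set the size of these differences. Without low library 3 the log2 difference of Mt1 was 0.27 (limma adjusted p = 0.696) and that of Mt3 was 0.23. Without high library 3 the difference of Mt2 was -0.06, so its direction rested on that library, and that of Mt3 was 0.08. The authors' deposited table gives log2 fold changes of 0.13 for Mt1, 0.21 for Mt2 and 0.15 for Mt3 on untransformed FPKM, with unadjusted p-values of 0.449, 0.570 and 0.280.

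Mt2 varied most between libraries of one group. The residual SD on the log2 scale was 0.30 for Mt2, 0.18 for Mt1 and 0.14 for Mt3, where the median tested gene had 0.11. These values lay at percentiles 95.6, 82.2 and 68.8 of all tested genes of any level, and were not compared with genes of like FPKM. For Mt2 high library 3 stood alone at 4.85 FPKM, above the other high libraries at 2.77 and 2.86. The low libraries carried most of the spread of Mt1, where the coefficient of variation was 17.0% against 7.40% in the high group.

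**Figure D3:**
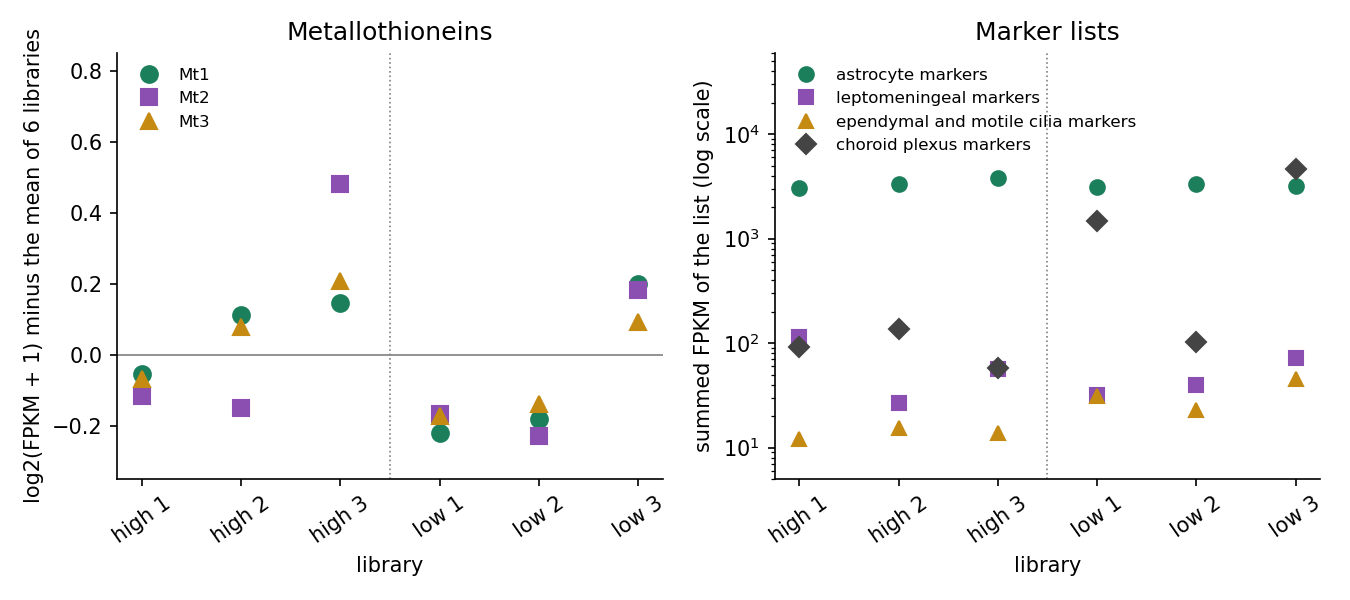
Left, log2(FPKM + 1) of Mt1, Mt2 and Mt3 minus the gene's mean over the 6 libraries. Right, summed FPKM of 4 marker lists on a log axis. High library 3 and low library 3 are above the mean for all 3 genes, and low libraries 1 and 2 are below it, while the choroid plexus list is highest in low libraries 1 and 3.

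Markers of cell types known to make metallothioneins differed between libraries in other orders. The 24 astrocyte markers summed to 3084, 3369 and 3777 FPKM among the high libraries and 3092, 3363 and 3193 FPKM in the low libraries, highest in high library 3, where Mt2 and Mt3 peaked. Of them 14 were higher and 10 lower, 0 were called, and the median log2 difference was 0.05. The groups did not overlap for 4 of the 24 (16.7%), all higher, where the share over all tested genes was 14.9%. Among them were Gjb6, a glial connexin (26.8 ± 2.41 against 19.7 ± 2.67 FPKM), and S100b, a calcium-binding protein (68.7 ± 5.94 against 57.8 ± 2.60 FPKM). Aldoc, an astrocytic glycolytic enzyme, had 299 ± 39.2 against 267 ± 20.3 FPKM. Gfap, the astrocytic filament protein, was 38.5 ± 15.1 against 41.8 ± 3.75 FPKM, the water channel gene Aqp4 was 12.3 ± 4.48 against 14.5 ± 3.21 FPKM, and the glutamate transporter gene Slc1a2 was 133 ± 11.7 against 138 ± 12.7 FPKM. With the mean level of the astrocyte markers as a covariate the log2 differences were 0.12 for Mt1, 0.05 for Mt2 and 0.11 for Mt3. In bulk tissue, fewer cells of a type and less RNA per cell cannot be told apart.

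Transcripts of choroid plexus, ependyma and meninges were present in unequal amounts. The 16 choroid plexus markers summed to 58.2 to 135 FPKM among the high libraries and to 1475, 103 and 4614 FPKM in the low libraries, and Ttr, which encodes transthyretin, reached 4016 FPKM in low library 3. The 9 ependymal markers in the table summed to 12.2 to 15.2 FPKM in the high group and 22.9 to 45.0 FPKM in the low group. The 12 leptomeningeal markers summed to 114, 26.5 and 56.5 FPKM among the high libraries and 31.6, 40.0 and 72.3 FPKM in the low libraries. Low library 3, with the highest Mt1, was highest in the first 2 lists, whereas low library 1, with 1475 FPKM of choroid plexus markers, had the lowest Mt1 and Mt3. When low libraries 1 and 3 were dropped and a single low library remained, the log2 differences were 0.25 for Mt1, 0.30 for Mt2 and 0.21 for Mt3, values that rest on low library 2 alone for the low group. The part of these cell types in the metallothionein values was not tested.

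Lists of these and other cells had 0 genes called. The groups did not overlap for 7 of 8 ependymal genes (87.5%, all lower) and 4 of 11 oligodendrocyte genes (36.4%, all higher). The same held for 4 of 11 microglia genes (36.4%, 3 higher and 1 lower) and 2 of 14 choroid plexus genes (14.3%, all lower). It held for 1 of 13 neuron genes and 1 of 13 endothelial and mural genes (7.69% each, higher), and for 0 of 11 leptomeningeal genes. Over all tested genes the share was 14.9%, near that of choroid plexus. At an unadjusted limma p under 0.05 were 8 of 8 ependymal and 11 of 14 choroid plexus genes, all lower, against 8.39% of all tested genes. Also there, all higher, were 4 of 11 leptomeningeal, 4 of 11 oligodendrocyte and 3 of 11 microglia genes. So were 3 of 24 astrocyte, 2 of 13 endothelial and mural and 1 of 13 neuron genes, again all higher. Median log2 differences were -1.60 for choroid plexus (0 of 14 tested genes higher), -0.87 for ependyma (0 of 8 higher) and 1.00 for meninges (9 of 11 higher). They were 0.13 for endothelial and mural cells (10 of 13 higher), 0.19 for oligodendrocytes (10 of 11 higher), 0.09 for neurons (8 of 13 higher) and 0.0041 for microglia (6 of 11 higher). Relative depth, from the most common ratio among 1428 genes of low FPKM, spanned 0.954 to 1.33, and mitochondrial genes held 13.6% to 16.4% of FPKM except in high library 2, with 11.1%.

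Zinc exporters move zinc out of the cytosol, where metallothioneins bind it. Of 9 tested, 2 were higher and 7 lower in the high group, and the list had a median log2 difference of -0.11 and 0 genes called. Slc30a3, the synaptic vesicle transporter, had 25.4, 55.5 and 24.2 FPKM among the high libraries and 48.2, 44.6 and 59.8 FPKM in the low libraries. High library 2 lay among the low libraries, and the log2 difference was -0.62 (SE 0.287; limma adjusted p = 0.599). Slc30a1, the plasma membrane exporter and itself an MTF1 target, was 4.78 ± 0.344 against 5.24 ± 0.485 FPKM. The groups did not overlap for Slc30a4 (5.29 ± 0.876 against 6.24 ± 0.168 FPKM) and Slc30a5 (5.20 ± 0.152 against 5.89 ± 0.237 FPKM), lower in the high group, with adjusted p-values of 0.605 and 0.596 by limma. These genes are 22.2% of the list, where the share over all tested genes was 14.9%.

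Zinc importers split evenly, with 5 of 10 tested genes higher and 5 lower and 0 called. Slc39a10, a plasma membrane importer, had the largest difference of the list for its error, with 23.7, 20.8 and 21.6 FPKM among the high libraries and 27.1, 28.8 and 29.6 FPKM in the low libraries. Its log2 difference was -0.36 (SE 0.0698; limma adjusted p = 0.471). Slc39a1, another importer of the plasma membrane, had 15.7 ± 0.748 against 13.5 ± 0.429 FPKM (limma adjusted p = 0.553), and Slc39a9 had 5.35 ± 0.167 against 5.88 ± 0.220 FPKM. In each of these 3 genes the groups did not overlap (30% of the list, against 14.9% of all tested genes). Slc39a12, an astrocytic importer, was 15.2 ± 3.55 against 16.6 ± 0.773 FPKM and overlapped.

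Mtf1, the metal-sensing activator of Mt1 and Mt2, had 4.06, 4.35 and 3.97 FPKM among the high libraries and 4.65, 4.14 and 4.50 FPKM in the low libraries. Its log2 difference was -0.08 (SE 0.0753; limma adjusted p = 0.758), and its groups overlapped. The 10 genes of metal-responsive transcription had 6 higher and 4 lower, 0 called and a median log2 difference of 0.0073. Within that list the groups did not overlap for 1 gene (10%), where the share over all tested genes was 14.9%. It was Mafg, a small Maf partner of NRF2 (25.0 ± 0.273 against 23.7 ± 0.846 FPKM, limma adjusted p = 0.720). Nfe2l2, which encodes NRF2, had 4.53 ± 0.830 against 5.24 ± 0.521 FPKM. Copper handling genes had 5 of 11 higher and 6 lower, with 0 called. The groups overlapped for all of them, where they did not for 14.9% of all tested genes. Sod1, the copper-zinc superoxide dismutase, was at 246 ± 13.1 against 232 ± 12.3 FPKM, and the copper chaperone gene Atox1 at 38.0 ± 1.91 against 39.6 ± 13.1 FPKM. The copper importer gene Slc31a1 had 4.39, 4.87 and 5.67 FPKM among the high libraries and 7.02, 4.95 and 13.6 FPKM in the low libraries, high where the choroid plexus markers were high.

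**Figure D4:**
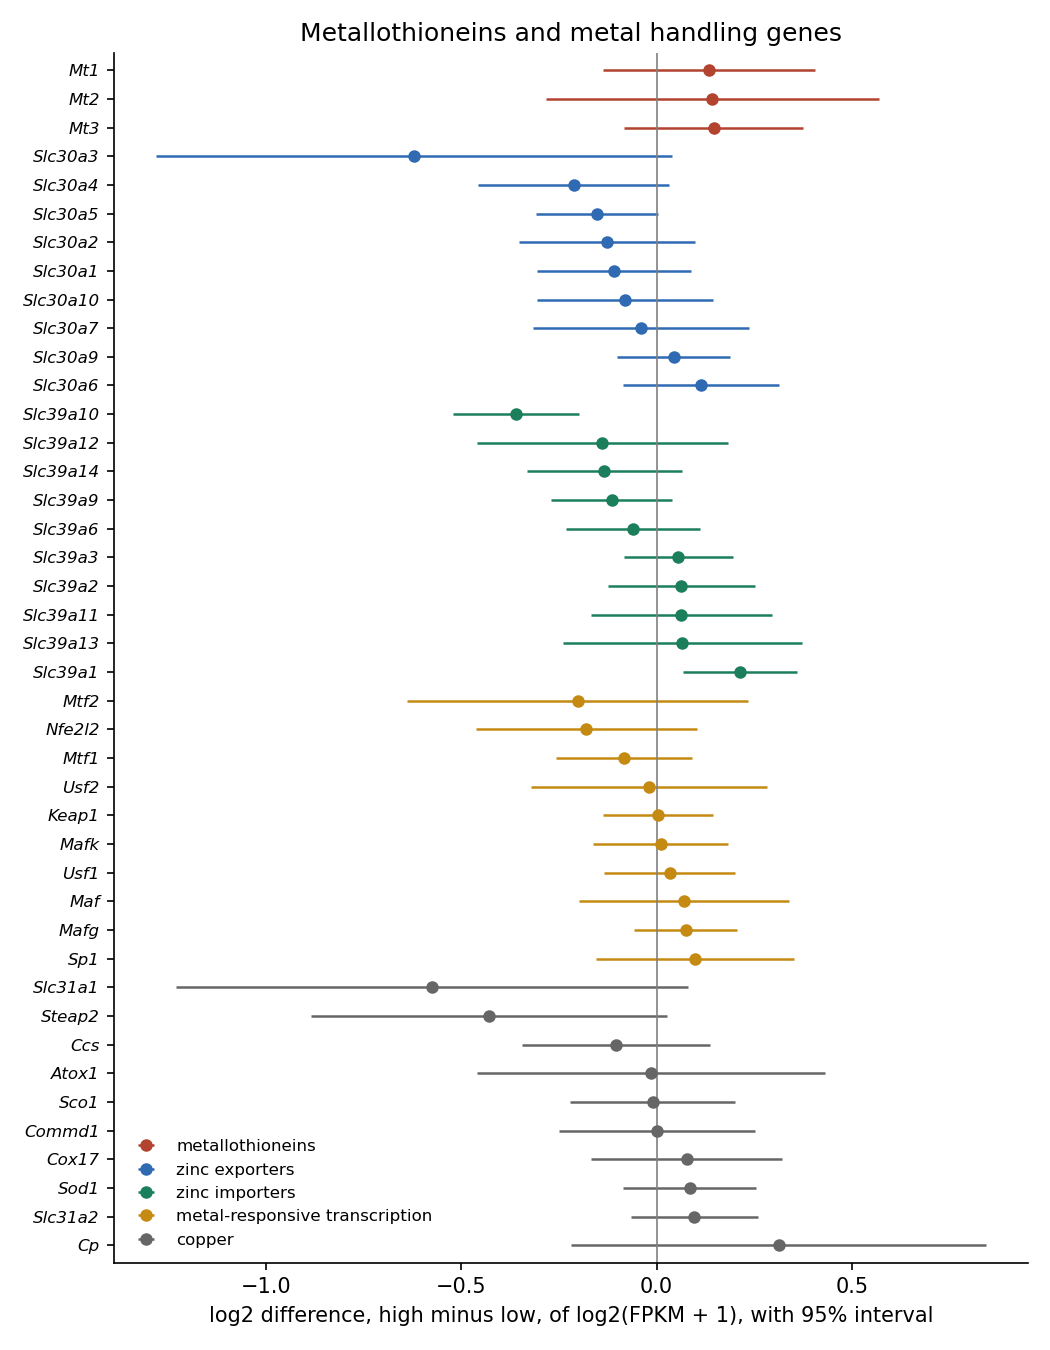
Log2 difference of log2(FPKM + 1), high minus low, with its unadjusted 95% interval from limma, for the metallothioneins and the tested genes of 4 metal lists (Mtf1, in both of the last 2 lists, is drawn once). The 3 metallothioneins lie between 0.13 and 0.15 with intervals across 0, Slc30a3 at -0.62 has a wide interval, and only Slc39a10 and Slc39a1 have intervals that leave out 0.

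Lists of oxidative stress defence genes, glucocorticoid-induced genes and iron handling genes each had 0 genes called. Oxidative stress genes had 10 of 19 higher, with a median log2 difference of 0.03. The groups did not overlap for 1 of the 19 (5.26%), against 14.9% of all tested genes. This was Srxn1, an NRF2-induced sulfiredoxin, with 36.7 ± 0.471 against 32.4 ± 1.04 FPKM (limma adjusted p = 0.557). Nqo1 (1.78 ± 0.0198 against 2.82 ± 1.26 FPKM) overlapped. Glucocorticoid-induced genes had 9 of 17 higher, with a median log2 difference of 0.02. The groups did not overlap for 17.6% of them (2 higher and 1 lower), where the share over all tested genes was 14.9%. Plin4, a lipid droplet protein gene, had 2.61 ± 0.102 against 1.60 ± 0.287 FPKM and Sult1a1, a sulfotransferase gene, had 11.6 ± 1.06 against 8.77 ± 0.637 FPKM, both without overlap. Pdk4, a pyruvate dehydrogenase kinase gene named after its values were seen, was lower without overlap (2.44 ± 0.178 against 2.92 ± 0.264 FPKM). Iron handling genes had 5 of 8 higher, and the groups did not overlap for 1 of the 8 (12.5%, against 14.9% of all tested genes). This was Tfrc, the transferrin receptor gene, with 7.10 ± 1.42 against 9.43 ± 0.521 FPKM (limma adjusted p = 0.557).

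Genes next to the cluster had small differences. Of the 7 other genes of the table within 250 kb, 4 were higher and 3 lower, with log2 differences from -0.11 to 0.06 and 0 called. The groups did not overlap for 1 of the 7, where the share over all tested genes was 14.9%. This was Nudt21, a subunit of the pre-mRNA cleavage factor (7.10 ± 0.311 against 7.72 ± 0.343 FPKM, limma adjusted p = 0.667). Nearest were Bbs2, of the BBSome of cilia, at 12.1 ± 0.686 against 11.9 ± 0.286 FPKM, and Nup93, a nuclear pore gene, at 5.07 ± 0.271 against 4.84 ± 0.518 FPKM. Mt4, a metallothionein gene of stratified epithelium upstream of Mt3, was not analysed here.

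The genes most like each member over the 6 libraries were found by the root mean square difference of log2(FPKM + 1) after each gene's mean was subtracted. Among 7318 genes with a mean of at least 5 FPKM, those closest to Mt3 were Bcap31 (0.0334), Alad (0.0370), Mpnd, Cyp2d22 and Nsmce1 (0.0433). Those closest to Mt1 were Cstb (0.0486), a cysteine protease inhibitor, Rab26, Slc2a6, D10Jhu81e and Mapk7 (0.0551). For Mt2 they were Prodh (0.126), Cyp2d22, Scara3, Inafm1 and Alad (0.139), against 0.252 for a flat profile. Alad, a zinc enzyme of haem synthesis, had 9.03, 9.51 and 10.9 FPKM among the high libraries and 8.27, 7.97 and 10.2 FPKM in the low libraries, an order of libraries that differs from that of Mt3 only in low libraries 1 and 2. Mt3 and Mt1 differed by 0.0596, which ranked Mt3 as number 7 from Mt1 and Mt1 as number 23 from Mt3. Mt2 lay 0.178 from Mt1 (rank 3127) and 0.156 from Mt3 (rank 2947), farther than a flat profile did from Mt1 (0.162) and Mt3 (0.137). Seen from Mt2, Mt3 ranked number 12 and Mt1 number 69 of 7319 genes, nearer than a flat profile (0.252). With 6 libraries and this many genes, unrelated genes may match a member closely. How often they do was not measured, and no test was made.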

How the data were processed

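RNA sequencing libraries of mouse brain tissue, 3 of the high and 3 of the low sexual motivation group by their titles, were compared. The deposited values are FPKM, as the table is named, and each library has 1 column. The tools were fastp, StringTie and HISAT2 on GRCm38, per the submitters' processing notes, which give no versions or settings. In the authors' table, deposited with the FPKM, stand a log2 fold change, equal to the log2 ratio of group mean FPKM, and an unadjusted p-value, equal to that of an equal-variance test of FPKM, in 13170 of 13170 genes within a tolerance of 1e-06. No count model was fitted, since FPKM carry no read counts and absolute depth is unknown.

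Genes averaging at least 1 FPKM were kept (12026). Their log2(FPKM + 1) values were fitted by group in R 4.3.3, using limma 3.58.1 and a variance trend, 2-sided, adjusted by Benjamini-Hochberg over all tested genes at 0.05. The procedure was tested on simulated data. Exact permutation tests used the mean FPKM. Sequences came from GENCODE M21 transcripts and RefSeq, and coding sequences were aligned globally (match 2, mismatch -1, gap opening -8, gap extension -1). Python 3.11.15, scipy 1.17.1, biopython 1.88 and matplotlib 3.10.9 were used.

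The members and the 16 gene lists were chosen with earlier results of these data known. Named genes are the members, up to 3 genes per list with the smallest p, a fixed set of metal, astrocyte and choroid plexus genes, the 5 genes most like each member with a mean of at least 5 FPKM (no Gm or Rik names), and genes within 250 kb; some of them are not reported here. Alternatives were other pseudocounts, filters and scalings, a GC content and transcript length trend removed, the replicate number as a block, other variance models, an astrocyte covariate and libraries left out.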

Additional observations from a re-analysis of the deposited data

How the results depend on the processing

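None of the 3 members passed limma's test under any alternative, with adjusted p-values from 0.572 to 0.963, and 0.979 where low libraries 1 and 3 were left out and the lone low library was assumed to vary like the others. In each, 0 genes were called. Mt1 kept a log2 difference above 0 in all 21 alternatives (0.06 to 0.27), as did Mt3 (0.06 to 0.23). Mt2, not tested under the filter at 5 FPKM, kept it in 19 of 20 and was -0.0623 without high replicate 3. With each library left out in turn the difference was 0.0576 to 0.268 for Mt1, -0.0623 to 0.269 for Mt2 and 0.0780 to 0.228 for Mt3. The annotated transcripts are short (percentiles 8.39, 1.13 and 1.78 of tested genes for Mt1, Mt2 and Mt3). With the GC content and length trend removed over 11924 genes the differences were 0.10 for Mt1, 0.10 for Mt2 and 0.08 for Mt3, and with quantile normalization that of Mt3 was 0.06. The replicate block left them at 0.13, 0.14 and 0.15 with limma adjusted p-values of 0.773, 0.777 and 0.757, and 0 genes called. Libraries of the same number were not treated as paired in the main fit. Their deviations from the group means correlated at -0.0939, -0.206 and -0.156 across genes. Deviations from a mean of 3 libraries are tied to each other, so these values cannot decide whether libraries were matched by number. The number of fragments behind Mt2, at 3 FPKM, is not known from FPKM.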
